A study of Mus musculus with 9 samples.

Results

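Sox9, the transcriptional targets of YAP and the markers of bile duct cells were followed as 9 genes in mouse liver after an overdose of acetaminophen. The set holds the transcription factor gene Sox9, the YAP target genes Cyr61 (listed in the files under its current symbol Ccn1), Ctgf (listed as Ccn2), Ankrd1 and Amotl2, and the biliary genes Spp1, Epcam, Krt7 and Krt19. They were chosen by symbol, and all 9 were found among the 21870 genes of the deposited mRNA table. The animals were wild-type C57 BL6 mice, given by the labels as 8 weeks old with an average weight of 20 g. Control mice received saline. APAP mice received acetaminophen (APAP), a painkiller whose overdose kills hepatocytes, at 500 mg/kg into the peritoneum. dmPGE2+APAP mice received 300 μg/kg of dmPGE2, an analogue of prostaglandin E2, by the same route 1 h before that dose. Livers were taken 6 h after APAP, with 3 libraries of whole-liver RNA per group, and no group received dmPGE2 alone. The labels do not say that the libraries came from separate animals, so the p-values measure only the spread between these samples.

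YAP and its relative TAZ are coactivators that the Hippo kinase cascade holds in the cytoplasm. In the nucleus they bind TEAD factors, and Ccn1, Ccn2, Ankrd1 and Amotl2 are commonly read as their targets. In adult liver SOX9 marks the cells of the bile ducts, and injured hepatocytes can switch it on while they take up biliary features. EPCAM, keratin 7 and keratin 19 are epithelial proteins of the ducts that hepatocytes largely lack, and osteopontin, the product of Spp1, is secreted by duct cells and by macrophages and stellate cells.

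Levels are in FPKM, a length- and depth-scaled fragment count, as deposited. Changes are log2 fold changes from one limma fit over all 9 libraries on log2 of rescaled FPKM plus 0.1, and the p-values are adjusted by the Benjamini-Hochberg method over the 11557 genes that reached 0.5 FPKM in 3 or more libraries. Of the 9 genes, 7 entered the fit. Krt7 and Ankrd1 stayed below that level in every library and have values but no test, and Krt19 entered with exactly 3 libraries at the level, 2 APAP and 1 control. Folds on this scale understate the change of genes with low values. Whole liver was measured, so a change in the number of cells of a type and a change in RNA per cell cannot be told apart.

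Control 3 stood apart from the other controls. On the second principal component of all tested genes (12.7% of the variance) it lay at -32.6, beside 15.6 and 16.2 for the other 2. Its summed level of 6 mesothelial markers was 2.92 FPKM, beside 0.464 and 0.321 FPKM, and in treated livers it was 0.37 to 1.53 FPKM; only 1 of the 6 could be tested and it was not called. Mesothelium, the cell layer over the liver surface, also makes keratins 7 and 19. The 16 cholangiocyte markers, 5 of which are Sox9, Spp1, Epcam, Krt7 and Krt19, summed to 22.9, 20.9 and 42.2 FPKM in controls, 37.0, 31.2 and 53.5 FPKM with APAP, and 35.3, 39.5 and 27.3 FPKM with dmPGE2+APAP. None of the 16 was at 0 in all libraries, and 11 reached 0.5 FPKM in some library. The part of these cells in the levels of control 3 was not tested. Changes fitted without control 3 are given for Sox9 and Ccn1.

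In APAP against control 2 of the 7 tested genes were called, that of a duct transcription factor and a YAP target. Sox9 was 5.6-fold and Ccn1 was 5.03-fold higher in APAP livers than in controls. Ccn2, Amotl2, Spp1, Epcam and Krt19 did not pass the test in any comparison. These 2 of 7 tested genes called higher, and 0 called lower, stand beside 10.6% of all tested genes called higher and 10.3% called lower, 20.9% in either direction. The median log2 fold change of the 7 was 0.47, beside -0.041 over all genes tested.

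Against control, dmPGE2+APAP called 1 of the 7 genes higher, Sox9, and 0 lower, beside 8.51% of all tested genes higher and 7.81% lower, 16.3% in either direction. Between dmPGE2+APAP and APAP limma called 0 of the 7, beside 0% of all genes tested in either direction, 0% higher and 0% lower, while 1069 of the 11557 genes had an unadjusted p under 0.05. With dmPGE2+APAP library 1 left out, 34 genes were called in that comparison. Rescaling the libraries moved the log2 changes by 0.10 between APAP and control and by 0.13 between dmPGE2+APAP and control. It also moved which genes were called and the share of them that were higher. Between APAP and control 50.6% of 2413 called genes were higher with rescaling, 31.6% of 3081 without it and 65.2% of 2408 with upper-quartile rescaling. Between dmPGE2+APAP and control these shares were 52.1%, 28.5% and 60.3%.

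**Figure D1:**
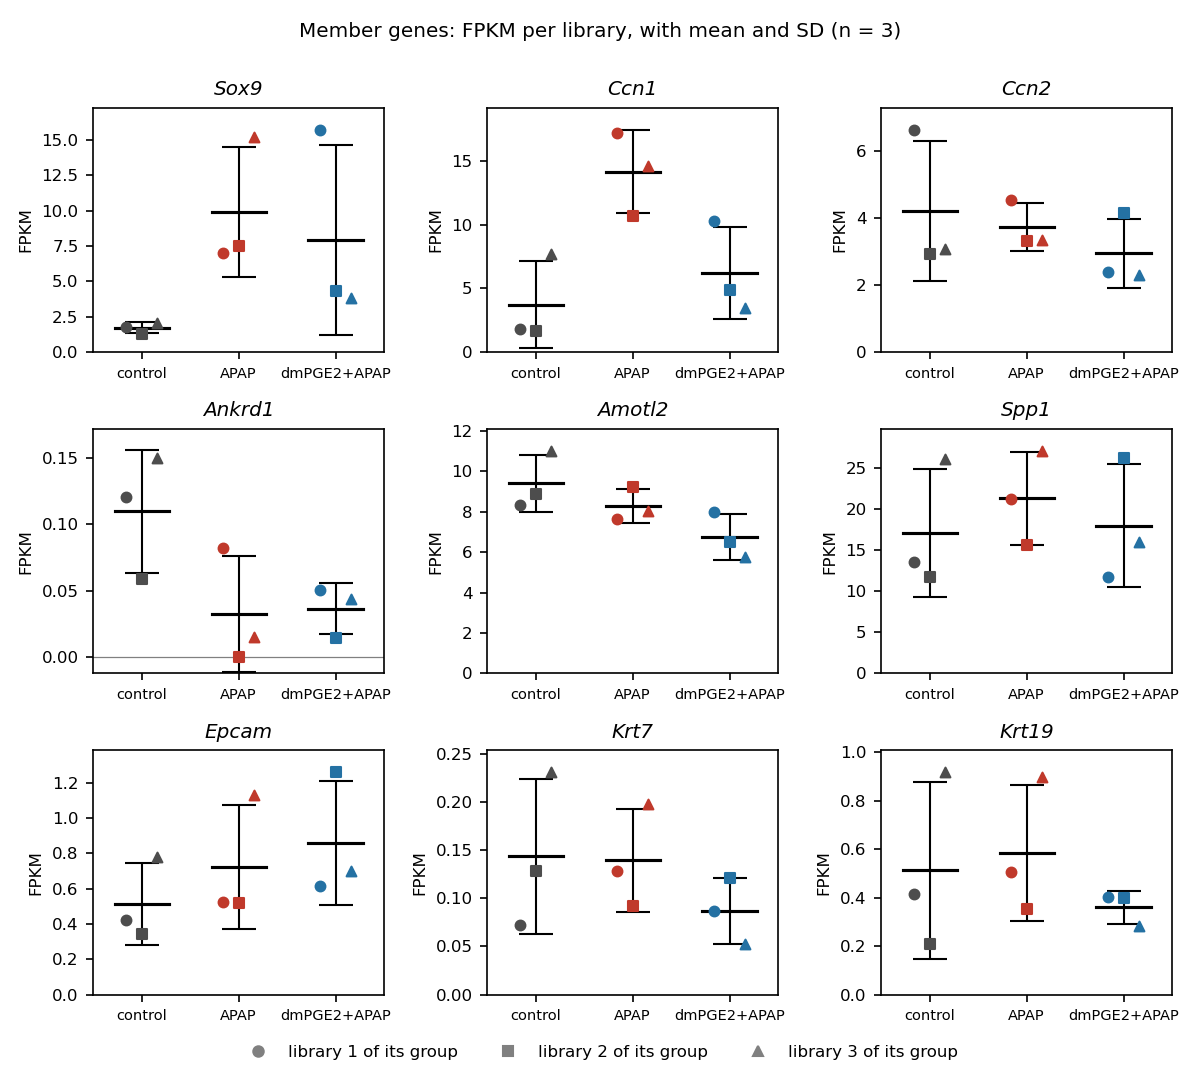
Deposited FPKM (y axes, linear, each with its own scale) of the 9 genes in the 9 libraries, with 1 panel per gene and 1 point per library. Thick bars are group means and whiskers are SD over 3 libraries; the 3 APAP points lie above the 3 control points for Sox9 and Ccn1, and control 3 is the highest control point in every panel but Ccn2.

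Sox9 (ENSMUSG00000000567) lies on chr11:112782224-112787760 in the GRCm38 build and encodes an HMG-box transcription factor of duct cells and of hepatocytes near the portal tract. The control libraries held 1.79, 1.31 and 2.08 FPKM. In APAP libraries the values were 7.01, 7.53 and 15.2 FPKM. The dmPGE2+APAP libraries held 15.7, 4.31 and 3.8 FPKM. All 6 treated libraries lay above all 3 controls, while the treated groups overlapped, and dmPGE2+APAP was the most scattered of the 3 groups, with a highest value 4.12 times its lowest. The group means were 1.73 ± 0.386, 9.93 ± 4.61 and 7.92 ± 6.70 FPKM (SD, n = 3).

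Sox9 rose with APAP by 2.48 (SE 0.504, limma adjusted p = 0.00923), with a 95% interval of 1.35 to 3.62. It also rose in dmPGE2+APAP against control, by 1.97 (SE 0.504, limma adjusted p = 0.0295), a 3.93-fold difference. Without control 3 these changes were 2.59 (limma adjusted p = 0.0178) and 2.08 (limma adjusted p = 0.0465). The call for dmPGE2+APAP was lost without control 1 (adjusted p = 0.0654) or control 2 (adjusted p = 0.0877), and when only the groups compared entered the fit (adjusted p = 0.0535). Without dmPGE2+APAP library 1 the change was 1.32 (limma adjusted p = 0.0311). Between dmPGE2+APAP and APAP the Sox9 difference was -0.51 with an interval of -1.65 to 0.63 (limma adjusted p = 0.779), and as a fold the interval ran from 0.319 to 1.54. Without dmPGE2+APAP library 1 this difference was -1.17 (limma adjusted p = 0.196).

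Of the other Sox genes listed, Sox8 and Sox10 reached at most 0.0549 and 0.0453 FPKM and were too low to be tested. Sox18 was called lower. This gene encodes an HMG-box factor of endothelial cells and held 2.2, 1.79 and 1.97 FPKM under saline and 0.103 to 0.29 FPKM under APAP. It fell by 2.95 with APAP (limma adjusted p = 0.00059) and by 2.85 with dmPGE2+APAP against control (limma adjusted p = 0.000839). Sox18 passed the filter only through the 3 control libraries, where it was high. Sox7 and Sox17, from the same endothelial subgroup, had changes of -0.18 (adjusted p = 0.612) and -0.47 (adjusted p = 0.207) with APAP.

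Ccn1 (Cyr61, ENSMUSG00000028195, chr3:145646976-145649981 on the minus strand) encodes a secreted matrix protein that binds integrins and is an immediate early gene as well as a YAP target. The control libraries held 1.82, 1.68 and 7.67 FPKM. APAP libraries held 17.2, 10.7 and 14.6 FPKM, and dmPGE2+APAP libraries 10.3, 4.88 and 3.46 FPKM. The 3 APAP livers were above every other library, and control 3 sat above 2 of the dmPGE2+APAP livers. The means were 3.72 ± 3.42, 14.2 ± 3.28 and 6.20 ± 3.58 FPKM (SD, n = 3) in control, APAP and dmPGE2+APAP.

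With APAP, Ccn1 rose by 2.33 (SE 0.551, limma adjusted p = 0.0177), with a 95% interval of 1.09 to 3.57. The call was lost when control 1, control 2, APAP 1 or APAP 3 was left out, with limma adjusted p-values of 0.0571 to 0.0598. Without control 3 the rise was 2.99 (limma adjusted p = 0.00215). The dmPGE2+APAP livers lay 2.42-fold below the APAP livers with no overlap between the groups, a difference of -1.27 with an interval of -2.52 to -0.03. That difference did not pass the test (unadjusted p = 0.0459, limma adjusted p = 0.533), and it remained outside the threshold in all 19 alternative settings, with adjusted p-values of 0.27 to 0.922. Against control the dmPGE2+APAP difference was 1.06 (limma adjusted p = 0.228), and without control 3 it was 1.71 and passed (limma adjusted p = 0.0243).

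The region just upstream of Ccn1 is printed because it holds in 1 short window the letters that TEAD factors bind and those of a short CRE. The CRE is the element through which CREB answers to cyclic AMP, the second messenger of some prostaglandin E2 receptors. Binding to either element was not measured, and a link between dmPGE2 and this region was not tested. The 250 bases before the RefSeq start (GRCm38.p6, chr3:145649986-145650235, minus strand) read 5′ to 3′ as follows. Capitals mark, in order, the TEAD letters (GGAATG or its complement, bases -103 to -98 from the start), the short CRE (TGACG or its complement, bases -58 to -54) and the TATA box (TATAAA, forward strand only, bases -25 to -20).
Ccn1 upstream: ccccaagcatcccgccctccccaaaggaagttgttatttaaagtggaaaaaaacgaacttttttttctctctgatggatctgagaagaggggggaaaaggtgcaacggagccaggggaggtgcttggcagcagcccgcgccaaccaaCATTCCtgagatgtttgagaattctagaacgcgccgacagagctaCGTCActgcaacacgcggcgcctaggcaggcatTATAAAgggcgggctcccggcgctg

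RefSeq windows were matched for 6 of the 9 genes, 7 windows in all because Spp1 has a pair. No window was matched for Sox9, Ccn2 or Krt19. The TEAD letters were found, on either strand, in the windows of Ccn1, Ankrd1 and Amotl2, which are the 3 YAP target genes with a window. They were not found in the windows of Spp1, Epcam or Krt7. The Ankrd1 window (chr19:36119845-36120094) and the Amotl2 window (chr9:102717554-102717803) lie inside the gene spans given here, as do the Krt7 window and the second Spp1 window. Only the Ccn1 match lies outside the span of its gene. Of all 32851 windows of this length, 12.6% hold the TEAD letters, 17.8% the short CRE and 7.59% the TATA box. Searched on both strands, the full CRE (TGACGTCA, in 1.55% of windows), the AP-1 site (TGANTCA, in 6.75%) and the CArG box of SRF (in 1.47%) had no match in the 7 windows. A match describes letters only and was not measured as a bound site. The 4 TEAD matches are shown with 12 bases on either side, capitals marking the match and the number in the name its first base relative to the start.
Ccn1 -103: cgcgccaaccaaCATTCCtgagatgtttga
Ankrd1 -210: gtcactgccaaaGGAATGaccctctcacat
Ankrd1 -123: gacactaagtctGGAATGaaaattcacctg
Amotl2 -65: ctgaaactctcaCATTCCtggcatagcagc

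Ccn2 (Ctgf, ENSMUSG00000019997, chr10:24595442-24598683) encodes connective tissue growth factor, the matrix protein closest in use to Ccn1 as a YAP readout. Its values were 6.62, 2.93 and 3.07 FPKM in controls, 4.54, 3.31 and 3.33 FPKM with APAP, and 2.38, 4.13 and 2.31 FPKM with dmPGE2+APAP. The groups overlapped in every comparison, and the highest single value was a control. APAP against control gave 0.02 with an interval of -0.73 to 0.76 (limma adjusted p = 0.979). The ratio of Ccn1 to Ccn2 FPKM within a library was 0.275, 0.574 and 2.5 in controls and 3.8, 3.24 and 4.38 in APAP livers. With dmPGE2+APAP it was 4.31, 1.18 and 1.5, so 1 library sat among the APAP livers and the other 2 within the control range. The top of that range was control 3, and these 2 libraries lay above the other controls. The 4 other CCN genes, Ccn3 to Ccn6, were too low to be tested.

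Amotl2 (ENSMUSG00000032531, chr9:102716672-102733418) encodes an angiomotin that holds YAP at cell junctions and is itself a YAP target. It was the steadiest of the 4 target genes, with 8.32, 8.89 and 11 FPKM under saline and 7.63, 9.23 and 8.01 FPKM under APAP. The dmPGE2+APAP libraries held 8.0, 6.52 and 5.75 FPKM, all below all 3 controls. That difference of -0.34 did not pass the test (unadjusted p = 0.0452, limma adjusted p = 0.15), nor did APAP against control, at -0.07 with an interval of -0.41 to 0.26 (limma adjusted p = 0.763). The lncRNA table also lists transcripts of Amotl2 that keep an intron, and the 2 that could be tested, Amotl2-205 and Amotl2-206, were not called in any comparison. The background there was 3.61% of transcripts called for APAP against control, 0% for dmPGE2+APAP against APAP and 1.81% for dmPGE2+APAP against control. Amotl2-206 held 1.99 FPKM in APAP 3 and 0.168 to 0.596 FPKM in the other 8 libraries.

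Ankrd1 (ENSMUSG00000024803, chr19:36111961-36120099 on the minus strand) encodes an ankyrin repeat protein best known from heart muscle and used in liver as a sensitive YAP target. It was barely present, with control values of 0.121, 0.0587 and 0.15 FPKM and APAP values of 0.0825, 0 and 0.015 FPKM. The dmPGE2+APAP libraries held 0.0504, 0.0142 and 0.0439 FPKM. When every gene above 0 was fitted with no floor, APAP against control gave -0.64 (limma adjusted p = 0.123). The TEAD letters occur at 2 places before the RefSeq start of Ankrd1, inside the span given above. Ankrd1 had the lowest control mean of the set.

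**Figure D2:**
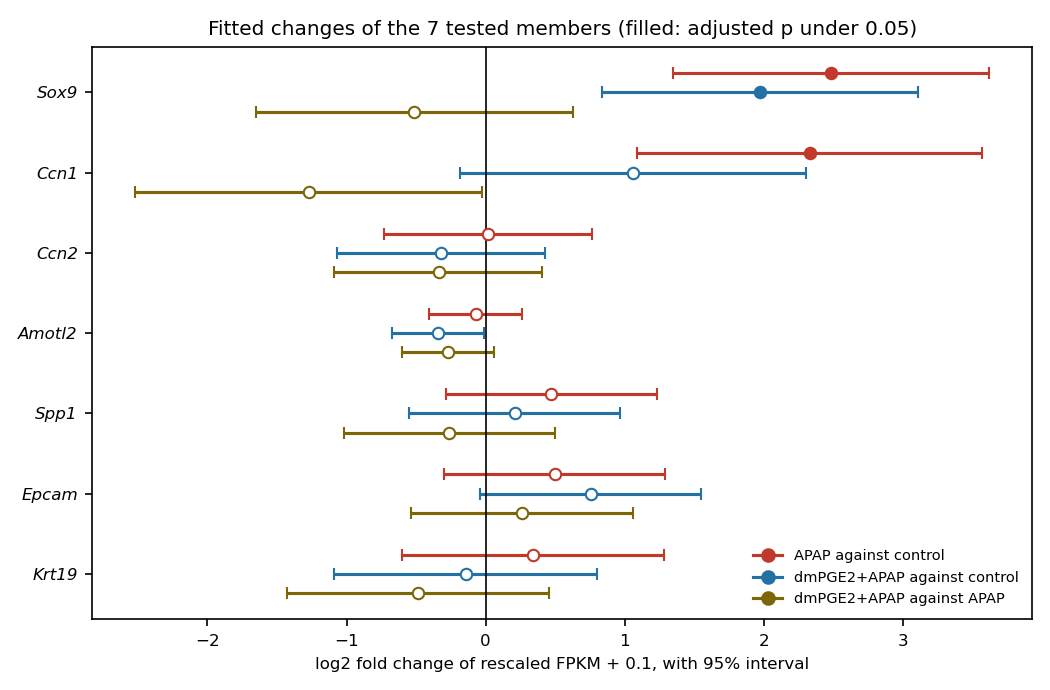
Fitted log2 fold change of rescaled FPKM plus 0.1 (x axis) for the 7 tested genes, with 95% intervals, in the 3 comparisons given by colour. Filled points passed an adjusted p of 0.05, which were Sox9 in both comparisons with control and Ccn1 in APAP against control.

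The other YAP and TEAD targets gave no common direction. Of 16 tested of 20 listed, APAP called 1 higher and 3 lower, and their median change was -0.09. For this and each later list, 10.6% of all tested genes were called higher and 10.3% lower with APAP. Against control, dmPGE2+APAP called 8.51% of all tested genes higher and 7.81% lower. Gadd45b, a stress-induced gene that many signals besides YAP switch on, rose from 1.44 ± 0.954 FPKM in controls to 11.7 ± 2.80 FPKM (SD, n = 3) with APAP, 9.0-fold (limma adjusted p = 0.000722). In dmPGE2+APAP livers it reached 21 ± 1.46 FPKM (SD, n = 3), 16.7-fold over control (limma adjusted p = 0.000287), and the treated groups did not overlap, although their difference did not pass (limma adjusted p = 0.516). Ajuba, whose LIM protein restrains the Hippo kinases, fell 2.27-fold with APAP (limma adjusted p = 0.0107), and Wwc1, which encodes the Hippo activator KIBRA, fell 1.49-fold (limma adjusted p = 0.00623). Nuak2, a kinase gene, was the third lower gene, and its call was lost without APAP 1 (limma adjusted p = 0.0515). Against control, dmPGE2+APAP called 1 higher and 4 lower, the same 4 genes and F3, the tissue factor gene.

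Hippo pathway genes were called in both directions. Of 25 tested of 27 listed genes, APAP called 5 higher and 2 lower, beside 10.6% and 10.3% of all tested genes. Their median change was -0.02. Of these 7 calls, Taok2 was lost in 13 of 19 alternatives, Sav1 in 12 and Wtip in 8. Frmd6, an upstream scaffold gene, went from 1.86, 1.88 and 2.34 FPKM in controls to 6.09, 5.08 and 7.38 FPKM with APAP, a 3.14-fold rise (limma adjusted p = 0.00043). Rassf1, which encodes a partner of the MST kinases, rose 2.54-fold (limma adjusted p = 0.000713), and Map4k4, a kinase gene that acts beside MST, rose 1.71-fold (limma adjusted p = 0.00531). Amot, the founding relative of Amotl2, fell 1.57-fold (limma adjusted p = 0.00864). Yap1 held 22.5, 21.6 and 22.6 FPKM in controls and 20.2, 20.4 and 22.4 FPKM with APAP (limma adjusted p = 0.885).

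With dmPGE2+APAP, Yap1 held 16.3, 16.9 and 16.7 FPKM, below the 6 other libraries. The change of -0.29 against control passed the test (limma adjusted p = 0.0313), but 8 of 19 alternatives ended that call, the upper-quartile rescaling among them, with adjusted p-values of 0.0518 to 0.103. Against APAP the Yap1 difference was -0.31 and did not pass (limma adjusted p = 0.317). Of the 25 Hippo genes, dmPGE2+APAP called 5 higher and 2 lower against control, beside 8.51% and 7.81% of all tested genes. Frmd6 and Map4k4 were among the higher ones with 1.67-fold and 1.47-fold changes (limma adjusted p = 0.0212 and 0.0262), and each of these calls was lost in 4 settings that left out 1 library. Wtip was lost in 14 of 19 alternatives and Tead1 in 11, and Rassf1 was the 1 gene of the 5 called in all 19.

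Of the genes of the bile duct epithelium among the 9, Spp1, Epcam and Krt19 did not pass the test, and Krt7 was too low to be tested. Spp1 (ENSMUSG00000029304, chr5:104435118-104441050), a secreted ligand of integrins and CD44, was the most abundant of the set. Controls held 13.6, 11.7 and 26.1 FPKM, APAP livers 21.2, 15.7 and 27.1 FPKM, and dmPGE2+APAP livers 11.7, 26.3 and 16 FPKM. Each group spanned nearly the same range, and APAP against control gave 0.47 with an interval of -0.29 to 1.23 (limma adjusted p = 0.347).

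Epcam (ENSMUSG00000045394, chr17:87635979-87651129), an adhesion molecule of duct and progenitor cells, was near the limit of the filter. Its values were 0.42, 0.345 and 0.778 FPKM in controls, 0.523, 0.521 and 1.13 FPKM with APAP, and 0.615, 1.26 and 0.698 FPKM with dmPGE2+APAP. The groups overlapped, with changes against control of 0.50 for APAP (limma adjusted p = 0.348) and 0.76 for dmPGE2+APAP (limma adjusted p = 0.181).

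Krt19 (ENSMUSG00000020911, chr11:100140810-100148665 on the minus strand) and Krt7 (ENSMUSG00000023039, chr15:101411043-101430313) encode the keratins by which pathologists find ducts. Krt19 held 0.415, 0.207 and 0.917 FPKM in controls, 0.506, 0.353 and 0.897 FPKM with APAP, and 0.401, 0.398 and 0.282 FPKM with dmPGE2+APAP. The control range covered all 6 treated libraries, and APAP against control gave 0.34 with an interval of -0.60 to 1.28 (limma adjusted p = 0.596). Krt7 held 0.0723, 0.128 and 0.231 FPKM in controls, 0.128, 0.0925 and 0.198 FPKM with APAP, and 0.0871, 0.121 and 0.0521 FPKM with dmPGE2+APAP. Fitted with no floor, Krt7 changed by 0.06 with APAP (limma adjusted p = 0.903).

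Sox9 was also compared with these epithelial genes within single libraries, as a description with no test. Epcam, Krt7 and Krt19 summed to 0.907, 0.68 and 1.93 FPKM in controls, 1.16, 0.967 and 2.23 FPKM with APAP, and 1.1, 1.78 and 1.03 FPKM with dmPGE2+APAP. Sox9 divided by that sum was 1.97, 1.93 and 1.08 under saline and 6.06, 7.79 and 6.84 under APAP, with no overlap. In dmPGE2+APAP livers the ratio was 14.2, 2.42 and 3.68, again above all controls. APAP 3, which held the most Sox9 of its group, also held the largest sum, so its ratio fell between those of the other APAP livers.

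**Figure D3:**
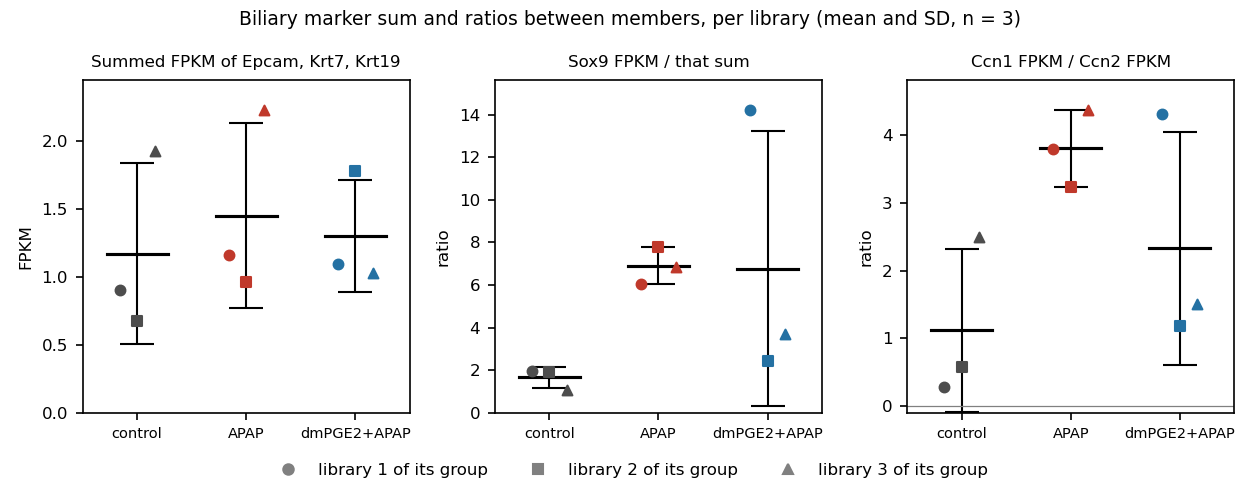
Summed FPKM of Epcam, Krt7 and Krt19 (left), Sox9 FPKM divided by that sum (middle) and Ccn1 FPKM divided by Ccn2 FPKM (right) in each library, on linear axes; bars are means and whiskers SD over 3 libraries. The marker sum overlaps between groups, for the controls only through control 3. The Sox9 ratio is 6.06 to 7.79 in APAP livers and 1.08 to 1.97 in controls, and the Ccn1 ratio is 3.24 to 4.38 in APAP livers and 0.275 to 2.5 in controls.

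Ordered by mean FPKM, the controls ran Spp1, Amotl2, Ccn2, Ccn1, Sox9, Epcam, Krt19, Krt7 and Ankrd1. The ranges of Ccn1 and Ccn2 overlapped in that order, as did those of Ccn1 and Sox9, Epcam and Krt19, Krt19 and Krt7, and Krt7 and Ankrd1. In APAP livers Ccn1 and Sox9 moved above Amotl2 and Ccn2 by their means, to 14.2 and 9.93 FPKM beside 8.29 and 3.72 FPKM, although the ranges of Sox9 and Amotl2 overlapped. The 4 lowest genes kept the same order in all 3 groups.

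Other cholangiocyte markers gave 10 tested genes of 24 listed, of which APAP called 1 higher and 1 lower, the lower call being lost in 12 of 19 alternatives. Over all tested genes 10.6% were called higher and 10.3% lower. Krt23, a keratin gene, rose from 0.876 ± 0.00888 to 1.94 ± 0.392 FPKM (SD, n = 3), 2.2-fold (limma adjusted p = 0.0135), and this call was lost without APAP 1 (limma adjusted p = 0.0516). In dmPGE2+APAP against control 0 were higher and 1 was lower, Onecut2, 1.5-fold (limma adjusted p = 0.0318), and 6 alternatives ended that call. The median change of the list with APAP was -0.02.

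Krt8 and Krt18 encode the simple keratins that hepatocytes share with duct cells. Krt8 held 60.7, 64.4 and 55.7 FPKM in controls, 215, 166 and 253 FPKM with APAP, and 185, 69.3 and 63.2 FPKM with dmPGE2+APAP. It rose 3.71-fold with APAP (limma adjusted p = 0.00729). Its partner Krt18 rose 2.18-fold (limma adjusted p = 0.0227), a call lost when control 2, control 3, APAP 1 or APAP 3 was left out. Both were high in dmPGE2+APAP library 1 and close to the controls in the other 2 libraries of that group, as Sox9 and Ccn1 were also highest in library 1. Neither keratin passed in dmPGE2+APAP against control (limma adjusted p = 0.19 and 0.31).

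Transcription factors that set hepatocyte and biliary fate formed a list of 13, of which 12 were tested. Of these, APAP called 0 higher and 7 lower, beside 10.6% and 10.3% of all tested genes, with a median change of -0.67. Cebpa, a driver of the hepatocyte programme, fell 1.52-fold from 176 ± 11.4 to 108 ± 8.99 FPKM (SD, n = 3; limma adjusted p = 0.00207). Foxa2, a forkhead factor of the liver lineage, fell 1.62-fold (limma adjusted p = 0.00581). With dmPGE2+APAP 9 of the 12 were lower against control and 0 higher, with Foxa2 2.19-fold lower (limma adjusted p = 0.000718). Without rescaling these genes are lower by a further 0.10 with APAP. Of the 9 calls with dmPGE2+APAP, Foxa1 was lost in 11 of 19 alternatives and Onecut1 when any 1 dmPGE2+APAP library was left out. Of the 7 calls with APAP, Hhex was lost in 5.

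Notch signalling acts upstream of Sox9 in the duct lineage. Of 9 tested genes, APAP called 3 higher and 1 lower, beside 10.6% and 10.3% of all tested genes. In dmPGE2+APAP against control the same 4 genes were called in the same directions. Of these Notch4 was lost in 3 of 19 alternatives with APAP and in 14 of 19 with dmPGE2+APAP, with limma adjusted p-values up to 0.0697 and 0.145. Hes1, the main Notch target and a repressor, held 3.24, 3.96 and 5.54 FPKM in controls and 10.0, 10.5 and 10.4 FPKM with APAP, a 2.63-fold rise (limma adjusted p = 0.00177). The receptor gene Notch1 rose 1.7-fold (limma adjusted p = 0.00432), and its call in dmPGE2+APAP against control was lost without dmPGE2+APAP library 2 (limma adjusted p = 0.0511). The endothelial ligand gene Dll4 fell 3.29-fold (limma adjusted p = 0.000349), from 1.56 ± 0.267 to 0.371 ± 0.0366 FPKM (SD, n = 3). Its call and that of Sox18 rest on the 3 control libraries being above the floor of the filter.

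SRF and its MRTF cofactors answer to actin polymerisation and share targets with YAP. Of 11 tested genes, APAP called 6 higher and 0 lower, beside 10.6% and 10.3% of all tested genes, with a median change of 0.53. Of these 6 calls, Vcl was lost in 8 of 19 alternatives and Zyx in 1. Actg1, a cytoplasmic actin gene, held 60.4, 60.3 and 40.5 FPKM in controls and 331, 184 and 265 FPKM with APAP, a 5.13-fold rise (limma adjusted p = 0.00212). Tpm4, a tropomyosin gene, rose 2.57-fold (limma adjusted p = 0.000924), and Srf itself rose 1.73-fold (limma adjusted p = 0.00208). In dmPGE2+APAP against control 3 of the 11 were higher, these same 3 genes, and 0 lower.

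Receptors for the secreted products of Ccn1, Ccn2 and Spp1 were followed as 13 tested integrin, syndecan and CD44 genes, of which APAP called 4 higher and 0 lower. Over all tested genes 10.6% were called higher and 10.3% lower. The call of Sdc4, a syndecan gene, was lost in 10 of 19 alternatives. Itgb3, the integrin chain that pairs with the αv chain, rose 2.39-fold (limma adjusted p = 0.00644), Itga6 rose 1.86-fold (limma adjusted p = 0.0105) and Itga9, an osteopontin receptor chain, rose 1.49-fold (limma adjusted p = 0.00955). Cd44, the other receptor of osteopontin, had a change of -0.04 (limma adjusted p = 0.886). In dmPGE2+APAP against control 3 were higher and 0 lower. Itga6 held 1.07, 1.05 and 0.971 FPKM there, beside 1.73, 1.81 and 1.79 FPKM with APAP, and that difference of -0.70 did not pass (limma adjusted p = 0.339). Between dmPGE2+APAP and APAP 0% of all tested genes were called, so none of these 8 lists held a call there.

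**Figure D4:**
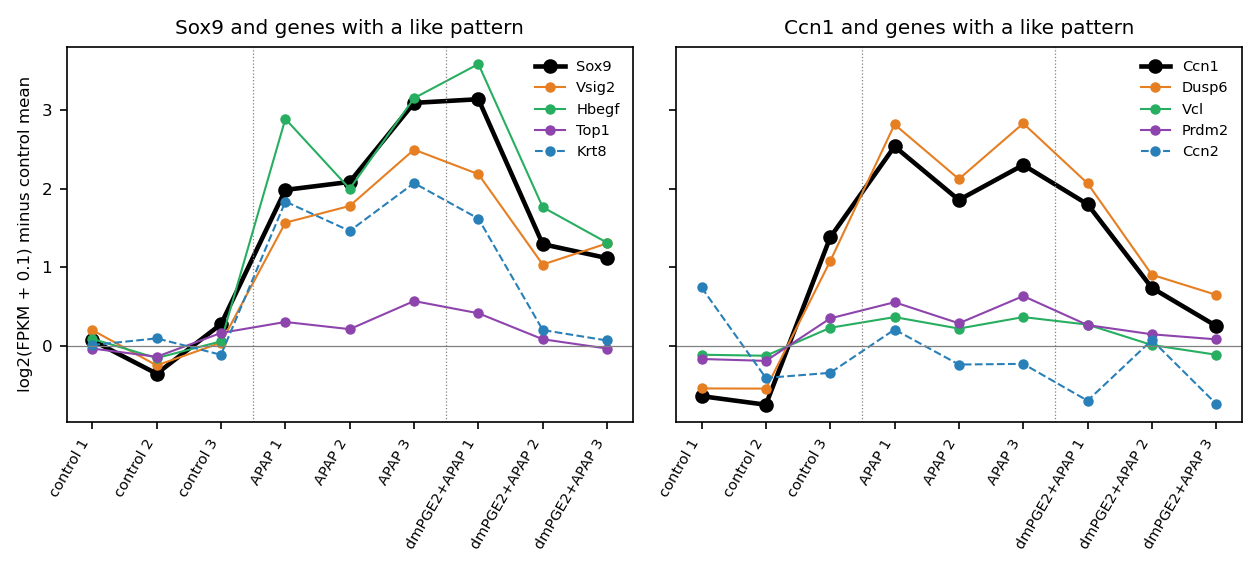
Log2 of FPKM plus 0.1 minus the control mean (y axis) in each of the 9 libraries (x axis). Sox9 (left) and Ccn1 (right) are drawn with the 3 genes of highest correlation to each. Dashed lines, picked by hand, are Krt8 (left) and Ccn2 (right). Lines join libraries only as a guide and replicates have no order; Sox9, Hbegf, Vsig2 and Krt8 are high in the APAP libraries and in dmPGE2+APAP library 1.

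The genes whose log2 values followed Sox9 most closely over the 9 libraries were Vsig2 (Pearson r = 0.982), Hbegf (0.975) and Top1 (0.973). Hbegf encodes an EGF receptor ligand, and held 0.247 to 0.311 FPKM in controls, 2.75, 1.44 and 3.32 FPKM with APAP and 4.52, 1.21 and 0.858 FPKM with dmPGE2+APAP. For Ccn1 they were Dusp6 (0.985), a phosphatase gene induced by ERK signalling, Vcl (0.979), which encodes the focal adhesion protein vinculin, and Prdm2 (0.975). Dusp6 held 6.26, 6.25 and 19.4 FPKM in controls, 64.9, 40.1 and 65.5 FPKM with APAP and 38.6, 17.2 and 14.4 FPKM with dmPGE2+APAP, so control 3 and dmPGE2+APAP library 1 stood out as they did for Ccn1. These correlations describe 9 libraries that share treatment groups. Vsig2 reached the filter level only in the APAP libraries and dmPGE2+APAP library 1, and Hbegf only in treated libraries, so the filter let both in through libraries where Sox9 was high.

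For the biliary genes the like patterns were of other genes. Spp1 was followed by Ube2k (0.939), Col1a1 (0.929), the collagen gene of stellate cells, and Nck2 (0.924). Epcam was followed by Grb10 (0.953), Pam (0.936) and Smoc2 (0.928), and Krt19 by Flna (0.965), S100a11 (0.964) and Col5a2 (0.951). In all 9 of these genes control 3 was the highest control and APAP 3 the highest APAP library. Krt19 and Col5a2 reached the filter level only in the same libraries, control 3, APAP 1 and APAP 3, so their correlation draws on the libraries that let both in. Ccn2 was followed by Srp72 (0.921), Mettl23 (0.891, and 0.749 with 1 library left out) and Dnajc17 (0.868). For Amotl2 they were Adcy9 (0.936), Tvp23a (0.919) and Wrn (0.919).

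Markers of other cells also moved with APAP. Their calls stand beside 10.6% of all tested genes called higher and 10.3% called lower. The sum of 8 neutrophil markers was 2.42 to 6.77 FPKM in controls, 41, 9.86 and 10.2 FPKM in APAP livers and 5.28 to 11.3 FPKM in dmPGE2+APAP livers. APAP called 4 of the 5 tested higher, but Clec4d passed the filter only through the 3 APAP libraries, and S100a8 was lost in 12 of 19 alternatives, Retnlg in 3 of 19 and Csf3r in 2 of 18. The 12 stellate cell and fibroblast markers summed to 138 to 193, 186 to 214 and 195 to 220 FPKM, with 2 called higher and 1 lower with APAP, and 1 of the higher calls, Ecm1, was lost in 13 of 19 alternatives. The 10 Kupffer cell and macrophage markers summed to 98.4 to 112, 61.1 to 102 and 105 to 110 FPKM, with 1 of 8 tested called higher. For 9 endothelial markers the sums were 86.1 to 93.7, 76.9 to 103 and 99.1 to 102 FPKM, with 2 called higher and 1 lower. The 8 lymphocyte and NK cell markers summed to 1.97 to 2.4 FPKM in controls and 0.63 to 1.16 FPKM in the 6 treated libraries, with no overlap, and 0 of the 8 could be tested. Of 7 pancreatic markers found, Pnlip, Cpb1, Prss2 and Cpa1 were listed at 0 in every library. Cela1 held 4.04, 7.73 and 14.3 FPKM in controls, 4.08 to 5.32 FPKM with APAP and 4.94 to 6.49 FPKM with dmPGE2+APAP. Cela2a and Ctrb1 reached at most 0.562 and 0.136 FPKM. The part of these cells in the rise of Sox9 and Ccn1 was not tested.

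As a check of the tissue, 10 hepatocyte markers summed to 37200 to 40100 FPKM in controls and 41700 to 49100 FPKM in treated livers, and 9979 to 10321 genes per library reached 1 FPKM. Most of each sum was Alb, at 21400 to 31700 FPKM. Of the 10, APAP called 0 higher and 1 lower, Glul, which fell from 415 ± 53.5 to 157 ± 36.0 FPKM (SD, n = 3). The read depth behind these values is unknown, so no counting interval is given.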

How the data were processed

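Whole-liver RNA of 9 libraries was measured by sequencing after removal of ribosomal RNA, with a dUTP-marked second strand, per the labels' protocols; whether quantification used the strand is not given in the sources used here. Per the submitters' processing notes the aligner was HISAT2 and the genome GRCm38 (mm10). The quantifier and annotation release are not given in the sources used here. The authors deposited FPKM per gene (mRNA table) and per transcript (lncRNA table). The deposited tables named for read counts were treated as scores, and no count test was run. In the lncRNA table, of scores of 1000 or more, 100% lay within 1% of a constant times FPKM times genomic span. In the mRNA table only 0.9% to 1.2% did, so how those values were made is not known; they summed to 296778853 to 399305070 per library. Between 16.8% and 18.5% of low lncRNA FPKM values lay within 0.05 of a whole fragment, so reads were not recovered and depth is unknown.

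The control columns carry a name the labels do not define; they were assigned to the saline group by elimination, since the remaining columns name the 2 treated groups, and their numbers are the columns' own. The numbers do not pair samples.

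FPKM were divided by a scale factor per library (a mean log ratio after trimming 30% by ratio and 5% by abundance), 0.1 was added, and log2 values were fitted with limma 3.58.1 (R 4.3.3) with an abundance trend, as 3 group means over 9 libraries with 6 residual degrees of freedom. Genes needed 0.5 FPKM, and lncRNA-table transcripts 0.1 FPKM, in at least 3 libraries. Calls are two-sided at a Benjamini-Hochberg adjusted p of 0.05; an exact test of 3 against 3 cannot go below 0.1. The scripts were tested on simulated data. In each list the 3 genes of lowest adjusted p in APAP against control among those called in any comparison are named, and for each tested member the 3 genes of highest Pearson r; further genes (Nuak2, F3, Amot, Yap1, Sox7, Sox17, Foxa1, Onecut1, Hhex, Cd44, Notch4, Wtip, Tead1, Taok2, Sav1, Sdc4, Zyx and the markers) were named after their values were seen. Some genes that this rule picks are not reported here. The members and lists were chosen with earlier results of these data known. Promoter sequences are from RefSeq (GRCm38.p6). Alternatives were other pseudocounts, filters, rescalings and limma settings, the replicate block, and each library left out in turn.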

Additional observations from a re-analysis of the deposited data

How the results depend on the processing

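Sox9 in APAP against control was called in all 19 alternatives, with log2 changes of 2.01 to 2.69 and adjusted p-values up to 0.0388; the lost and gained calls of Sox9 and Ccn1 are given above. Among uncalled values, Ccn2 in APAP against control turned to -0.001 with a pseudocount of 1 FPKM and -0.083 without rescaling, and Amotl2 to 0.01 with upper-quartile rescaling. Leaving out 1 library in turn also moved these across 0: Ccn2 (-0.186 to 0.405), Amotl2 (-0.172 to 0.01), Krt19 (-0.057 to 0.582), Amotl2-205 (-0.047 to 0.003) and Amotl2-206 (-0.538 to 0.841) in APAP against control, Ccn2 (-0.57 to 0.066) and Spp1 (-0.085 to 0.523) in dmPGE2+APAP against control, and Epcam (-0.006 to 0.57) and Amotl2-206 (-0.623 to 0.757) in dmPGE2+APAP against APAP. The causes were not tested.

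The genes called numbered 2413, 0 and 1887 in APAP against control, dmPGE2+APAP against APAP and dmPGE2+APAP against control. Leaving out each library gave 1532 to 2296, 0 to 34 and 1031 to 1819; the lowest came without APAP 3 (1532) and dmPGE2+APAP 2 (1031), and 1136 and 1167 came without dmPGE2+APAP 3 and control 2. Fitting only the groups compared called 2 genes between dmPGE2+APAP and APAP. The lncRNA-table calls (830, 0 and 416) ranged over 181 to 808, 0 to 8 and 99 to 344 with 1 library left out, and a pseudocount of 0.01 FPKM gave 3 between dmPGE2+APAP and APAP. With the replicate number as a block the genes called were 2038, 0 and 1483, and the transcripts 444 and 109 in the comparisons with control; of 9 same-numbered pairs 0 correlated over 0.1 (-0.117 to 0.072) and 0 libraries correlated best with their own number. The same alternatives were run for the list genes after their calls were seen: of 89 calls, 60 held under every alternative that gave a value and 0 reversed.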
